A study of Rattus norvegicus with 2 samples.

Results

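*Cxcl1*, *Cxcl2*, *Cxcl3* and *Cxcl6* encode secreted CXC chemokines that attract neutrophils. These 4 genes were taken by their symbols from the 25399 genes listed for the 2 libraries, and all 4 had UMIs (unique molecular identifiers, 1 per captured transcript) in both. Levels are UMIs per 1000000 UMIs of the cluster or library (CPM). The study asked how intrinsic cardiac adrenergic (ICA) cells, a catecholamine-making cell of the heart, respond to lipopolysaccharide (LPS), the endotoxin of Gram-negative bacteria. Cardiac cells of neonatal Sprague-Dawley rats aged 1 to 3 days, both sexes pooled, were released with trypsin, enriched on a Percoll gradient and kept for 2 h with saline (control) or with LPS at 1 µg/mL. Each condition gave 1 library of the 10X Genomics 3′ v2 kind, so no comparison between them has a replicate and no test was made. All 95% intervals are exact and cover counting error only, not the spread between cells, animals or cultures. LPS, the handling of the 2 cultures and the 2 library preparations cannot be told apart.

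CXC chemokines that carry the glutamate-leucine-arginine motif before their first cysteines bind the receptors CXCR2 and, for some, CXCR1 on neutrophils and draw these cells into inflamed tissue. In rats, *Cxcl1*, *Cxcl2* and *Cxcl3* encode the cytokine-induced neutrophil chemoattractants, and *Cxcl6* encodes a ligand of the same receptors. LPS is sensed by TLR4 with CD14 and MD-2, signalling runs through MyD88 to NF-κB, and NF-κB binds sites close to the start of several chemokine genes. Their messengers are short-lived, and the RNase regnase-1, encoded by *Zc3h12a*, and zinc finger proteins such as *Zfp36* shorten their lives.

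The 4 genes lie together on rat chromosome 14. In RefSeq's gene order on GRCr8, *Cxcl2* and *Cxcl1* come first, *Cxcl3* follows, then the platelet chemokine genes *Pf4* and *Ppbp*, and *Cxcl6* closes the row. RefSeq's promoter table, of build GRCr8, matched 3 of the 4 symbols. *Cxcl3* is named only. The 100 bases before the annotated start are shown for these 3 because the genes were higher together in the LPS library. Letters run 5′ to 3′ on the minus strand, and capitals mark matches to the κB consensus, the recognition sequence of NF-κB, with overlapping matches of both strands joined. The 100 bases shown lie at chr14:17479322-17479421 for *Cxcl1*, chr14:17467256-17467355 for *Cxcl2* and chr14:17596418-17596517 for *Cxcl6*.
Cxcl1: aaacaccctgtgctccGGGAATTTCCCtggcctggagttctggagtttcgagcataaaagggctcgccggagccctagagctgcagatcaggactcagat
Cxcl2: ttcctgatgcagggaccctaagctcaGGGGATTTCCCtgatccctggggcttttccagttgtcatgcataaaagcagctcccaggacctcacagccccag
Cxcl6: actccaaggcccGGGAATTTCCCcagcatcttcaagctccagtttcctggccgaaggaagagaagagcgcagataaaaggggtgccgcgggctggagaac

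The match read on the gene's own strand began 84 bases before the start in *Cxcl1*, 74 bases in *Cxcl2* and 88 bases in *Cxcl6*. The consensus was searched on both strands. Among 33469 rat promoters of RefSeq, 2.51% held a match within the 100 bases before the start. A match is a description of letters and does not show that a factor was bound in these cells.

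The authors' table placed 11529 of 11531 control cells and 12681 of 12689 LPS cells in 11 clusters. Clusters 0, 1 and 7 were labelled fibroblasts, clusters 4 and 5 endothelial cells, cluster 6 macrophages and cluster 3 ICA cells and cardiomyocytes, and clusters 2, 8, 9 and 10 carried no type. The labels call the cells ICA cells, but the ICA and cardiomyocyte cluster made up 7.25% of control and 7.33% of LPS cells. In this cluster the ICA markers *Dbh* and *Ddc* lay at 75.01 and 81.7 CPM in sum. The ICA marker *Th* had no UMI there in either library. Cluster 2 was mural-like by *Rgs5*, *Kcnj8* and *Abcc9*, and cluster 8 mesothelial-like by *Msln* and *Upk1b*. Of the 5 listed mesothelial markers, *Krt19* had no UMI in cluster 8 in either library. Cluster 9 was led by mitochondrial genes and *Myh6*, and mitochondrial genes made up 22.7% of its control and 22.1% of its LPS UMIs. Fibroblast markers, summed, were higher there than in any other cluster, at 17672 CPM (control) and 14661 CPM (LPS). Cluster 0 had 11999 and 10930 CPM. Cardiomyocyte markers, summed, lay at 1156 and 1309 CPM in cluster 9, against 7015 and 7408 CPM in cluster 3. Cluster 10, with 16 and 26 cells, was led by *Sox2*, *Gap43* and *Sox10* and is called by its number. In cluster 6 all 9 macrophage markers had UMIs in control cells, whereas *Cd163* was at 0 in LPS cells. Median depth was 12481 UMIs per control cell and 9434 per LPS cell, and 194 barcodes occurred in both libraries. None of the 4 chemokine genes was among the 10 leading genes of a cluster. Since the clusters were made from the same transcripts, differences between clusters are described without a test.

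Over all clustered cells, *Cxcl1* lay at 134 CPM (95% interval 132 to 136) in the control library and at 2322 CPM (2313 to 2330) in the LPS library, a ratio of 17.3 (17.1 to 17.5). *Cxcl6* lay at 107 CPM (105 to 109) and 1475 CPM (1468 to 1481), a ratio of 13.8 (13.6 to 14.0). *Cxcl3* lay at 91.0 CPM (89.5 to 92.6) and 1006 CPM (1001 to 1012), a ratio of 11.1 (10.9 to 11.3). Without cluster 6, a setting added after seeing the data, the log2 ratio of *Cxcl3* was 4.42 in place of 3.47, above that of *Cxcl1* at 3.98 and of *Cxcl6* at 3.79. Without cluster 0 that of *Cxcl1* was 4.74 in place of 4.11. *Cxcl2*, the scarcest of the 4 in both libraries, lay at 4.60 CPM (4.27 to 4.95) and 199 CPM (196 to 201) and had the highest ratio, 43.2 (40.1 to 46.7). Every member was at least 4-fold higher in the LPS library, which 1.16 percent of the 14347 genes with at least 20 UMIs were. The members were chosen with earlier results of these data known. Together the 4 genes took 0.0337% of all control UMIs and 0.5002% of all LPS UMIs.

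The level counted was higher in the LPS library in every cluster where it could be assessed. In some clusters the level of a member lay within the range of marker genes of other cell types, as given below. The part of freed RNA in these levels was not tested. With at least 10 UMIs over both libraries required, 43 of the 44 pairs of a gene and a cluster could be compared, and all 43 were at least 4-fold higher in the LPS library, with 0.5 UMI added to each sum. At least 8-fold were 40 of them, the exceptions being *Cxcl3* in cluster 6 and *Cxcl1* and *Cxcl3* in cluster 9. The share of all tested genes that passed 4-fold was 1.21% in cluster 0, 1.12% in cluster 1, 0.995% in cluster 2, 0.694% in cluster 3, 0.841% in cluster 4 and 1.44% in cluster 5. It was 1.8% in cluster 6, 1.39% in cluster 7, 0.635% in cluster 8, 1.02% in cluster 9 and 1.23% in cluster 10. The pair that was not compared was *Cxcl2* in cluster 10, with 0 control and 9 LPS UMIs. Against a limit of 3 UMIs in the control cells its LPS level was 2.71-fold higher. The counting interval of its ratio began at 1.78.

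**Figure D1:**
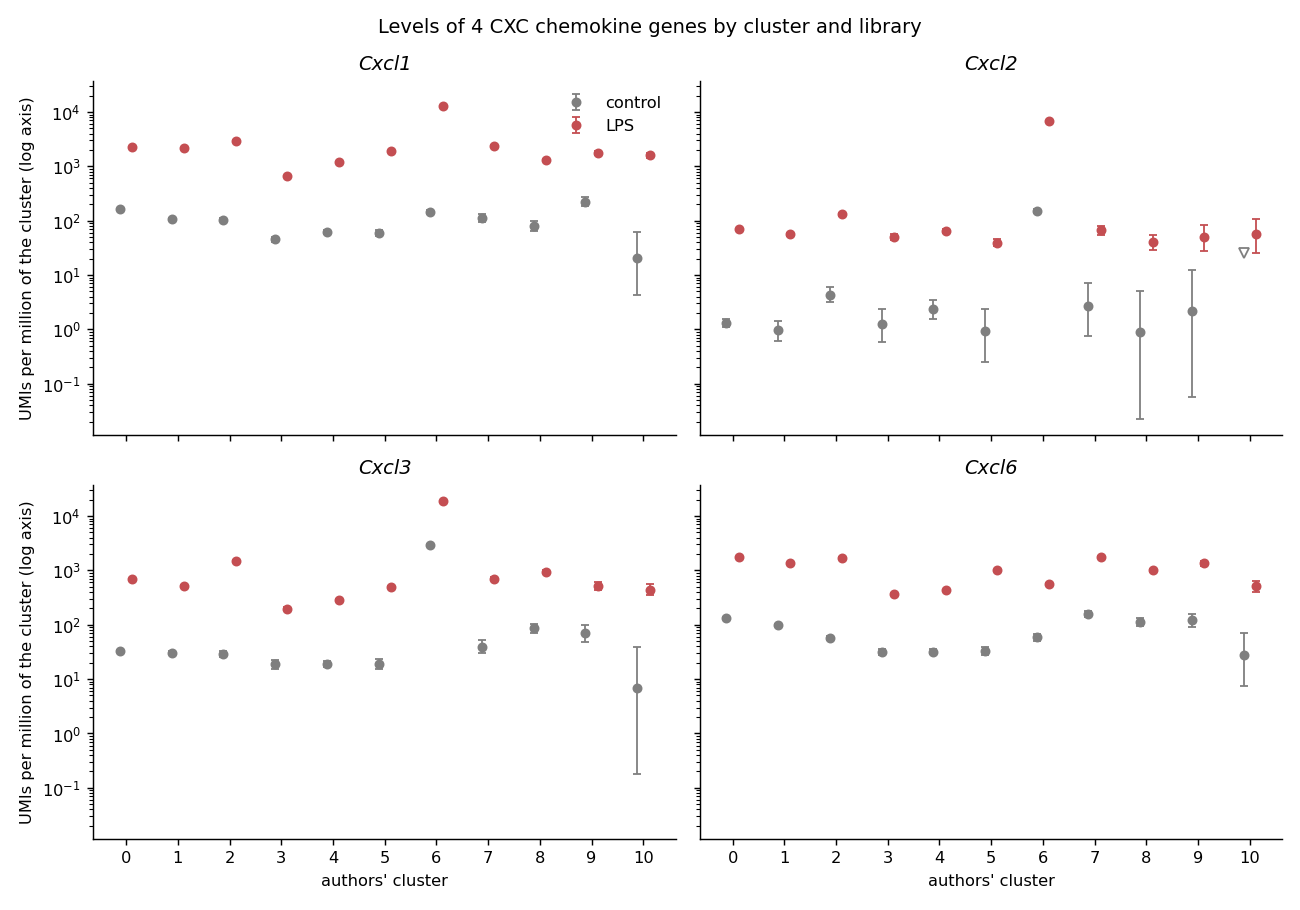
Level of each chemokine gene (UMIs per 1000000 UMIs of the cluster, log axis) in the authors' 11 clusters, grey for the control and red for the LPS library, with 95% counting intervals. The open triangle marks the upper limit of *Cxcl2* in control cells of cluster 10, where no UMI was counted; every LPS point lies above the control point of its cluster, and in the LPS library cluster 6 (macrophages) is highest for *Cxcl1*, *Cxcl2* and *Cxcl3* but not for *Cxcl6*.

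*Cxcl1* (ENSRNOG00000002802) was the member with the most UMIs, and its highest LPS level was in macrophages. There it went from 454 UMIs in the control library to 31790 in the LPS library, or from 146 CPM (133 to 160) to 12789 CPM (12648 to 12930). The ratio of 87.7 (80.0 to 96.5) was the highest of any pair with more than 10 UMIs in both libraries. Among all genes of the LPS macrophages *Cxcl1* ranked 8 by level, against 881 among those of the control macrophages. In the fibroblasts of cluster 0 it went from 164 to 2238 CPM, a ratio of 13.7 (13.4 to 13.9), and in those of clusters 1 and 7 it reached 2199 and 2399 CPM. The mural-like cluster 2 came second in the LPS library, at 2994 CPM (2957 to 3031) after 104 CPM in the control library. The endothelial clusters 4 and 5 had nearly the same control level, 61.7 and 60.5 CPM, and the interval of the ratio between them included 1. With LPS they lay apart, at 1207 CPM (1185 to 1229) in cluster 4 and 1916 CPM (1876 to 1957) in cluster 5. Cluster 3, with the ICA cells and cardiomyocytes, had the lowest LPS level, 655 CPM (634 to 677), after 45.5 CPM in the control library. Clusters 8, 9 and 10 lay between 1301 and 1781 CPM in the LPS library, and the intervals did not separate cluster 5 from cluster 9 or cluster 9 from cluster 10.

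*Cxcl2* (ENSRNOG00000002792) had its highest level in macrophages in both libraries. In cluster 6 it went from 474 to 16725 UMIs, or from 152 CPM (139 to 167) to 6728 CPM (6627 to 6831), a ratio of 44.2 (40.4 to 48.5). The other clusters had between 0 and 4.38 CPM in the control library and between 39.1 and 132 CPM in the LPS library. Cluster 2 was again second, from 4.38 CPM (3.14 to 5.94) to 132 CPM (124 to 140). Cluster 0 went from 119 UMIs to 5162, or from 1.31 CPM (1.09 to 1.57) to 70.0 CPM (68.1 to 71.9), a ratio of 53.2 (44.4 to 64.4). Outside clusters 6 and 2, no LPS level was separated by its interval from the next in order, from cluster 0 at 70.0 CPM down to cluster 5 at 39.1 CPM. The ends of this order were separated by the counting interval, with cluster 5 at 55.9% (47.9 to 64.9) of the level in cluster 0. The ratios of *Cxcl2* in clusters 5, 7, 8 and 9 rested on 1 to 4 control UMIs, and in cluster 9 the ratio was 22.5, with an interval of 3.43 to 953.

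*Cxcl3* (ENSRNOG00000028043) was already high in the control macrophages, and its ratio was lowest where its level was highest. In cluster 6 it went from 9305 to 46393 UMIs, or from 2988 CPM (2927 to 3049) to 18663 CPM (18494 to 18834), a ratio of 6.25 (6.11 to 6.39). It ranked 44 among all genes in the control and 5 in the LPS macrophages. In the other clusters it had between 6.95 and 85.5 CPM in the control library, with cluster 8, the mesothelial-like cells, at the top of that range. In LPS cells it lay at 1503 CPM (1477 to 1530) in cluster 2, at 952 CPM (893 to 1012) in cluster 8 and at 683 CPM (677 to 689) in cluster 0. The ratio in cluster 2, 52.5 (46.5 to 59.5), was above that in cluster 0, 20.8 (20.01 to 21.6), and that in cluster 1, 17.2 (16.0 to 18.6). Cluster 3 was lowest with LPS at 199 CPM (187 to 211).

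*Cxcl6* (ENSRNOG00000002843) had the other pattern: its highest level was in fibroblasts, and macrophages lay below them. In cluster 0 it went from 12119 to 129585 UMIs, or from 134 CPM (132 to 136) to 1757 CPM (1747 to 1766), a ratio of 13.1 (12.9 to 13.4). Cluster 7 at 1742 CPM and cluster 2 at 1706 CPM followed, and neither step was separated by its interval. In macrophages it went from 185 to 1400 UMIs, or from 59.4 CPM (51.1 to 68.6) to 563 CPM (534 to 593), a ratio of 9.48 (8.13 to 11.1). This ratio depended on how cells were weighed: its log2 value of 3.24 (3.02 to 3.47) was 2.57 after thinning each cell to 3000 UMIs, 2.80 as the mean of the cells' own CPM and 2.93 without the 8% of cells with the most UMIs. The endothelial clusters again had like control levels, 31.8 and 32.9 CPM, and LPS levels of 432 CPM (419 to 445) in cluster 4 and 1009 CPM (980 to 1039) in cluster 5. The lowest LPS level was that of cluster 3, 375 CPM (359 to 392), and clusters 3 and 4 both lay below the macrophages.

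**Figure D2:**
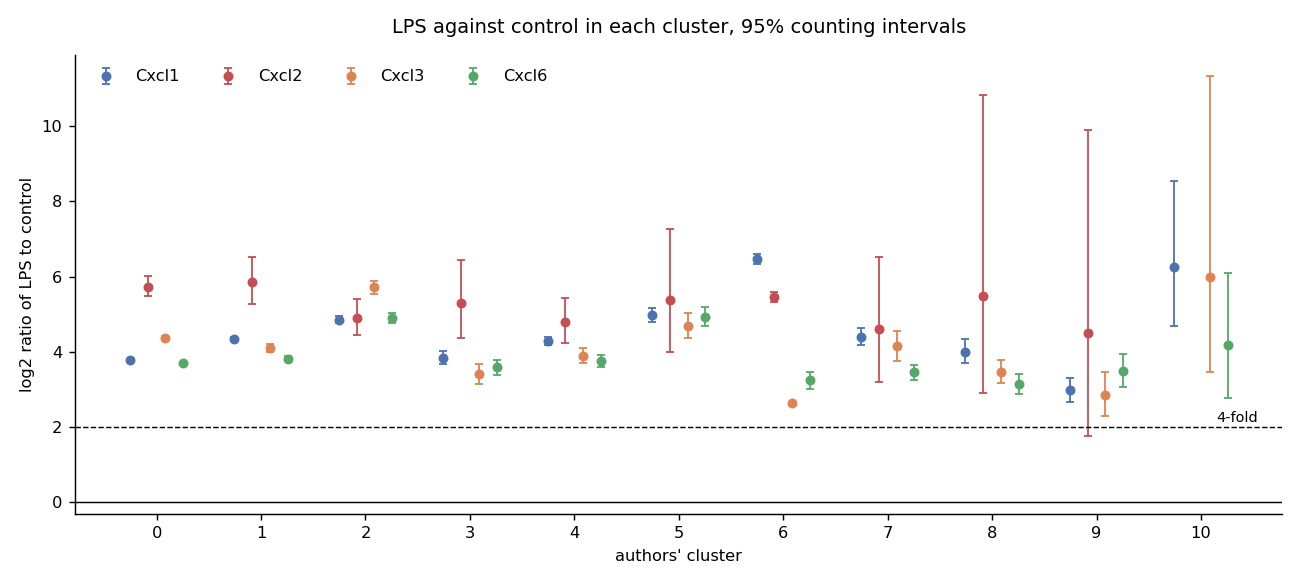
Log2 ratio of the LPS to the control level for each gene in each of the authors' clusters, with 95% counting intervals and a dashed line at 4-fold. Of the 4 genes, *Cxcl1* is highest and *Cxcl3* lowest within cluster 6, *Cxcl3* is highest within cluster 2, and *Cxcl2* in cluster 10, with no control UMI, is not drawn.

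By size of the ratio the 4 genes stood near the top of each cluster's tested genes. In cluster 0 they ranked 8 (*Cxcl2*), 22 (*Cxcl3*), 39 (*Cxcl1*) and 41 (*Cxcl6*) of 13447. In cluster 2 they ranked 6 (*Cxcl3*), 13 (*Cxcl6*), 14 (*Cxcl2*) and 15 (*Cxcl1*) of 10449. In cluster 6 the places were wider apart, 10 for *Cxcl1*, 23 for *Cxcl2*, 67 for *Cxcl6* and 95 for *Cxcl3*, of 8401.

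The clusters that held the transcripts differed by gene. Cluster 6 was 2.29% of the LPS cells but held 65.9% of the *Cxcl2* and 36.1% of the *Cxcl3* UMIs of that library. Of the *Cxcl1* UMIs it held 10.7%, and of the *Cxcl6* UMIs 0.744%. In the control library the macrophages, 2.44% of cells, had held 67.5% of *Cxcl2*, 67.0% of *Cxcl3*, 2.22% of *Cxcl1* and 1.13% of *Cxcl6*. The macrophage share of *Cxcl1* was thus higher and that of *Cxcl3* lower in the LPS library, while that of *Cxcl2* was nearly equal in both. Cluster 0, 55.4% of the LPS cells, held 68.9% of the *Cxcl6*, 55.7% of the *Cxcl1*, 39.2% of the *Cxcl3* and 20.3% of the *Cxcl2* UMIs. In the control library it had held 21.4% of the *Cxcl3* UMIs.

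**Figure D3:**
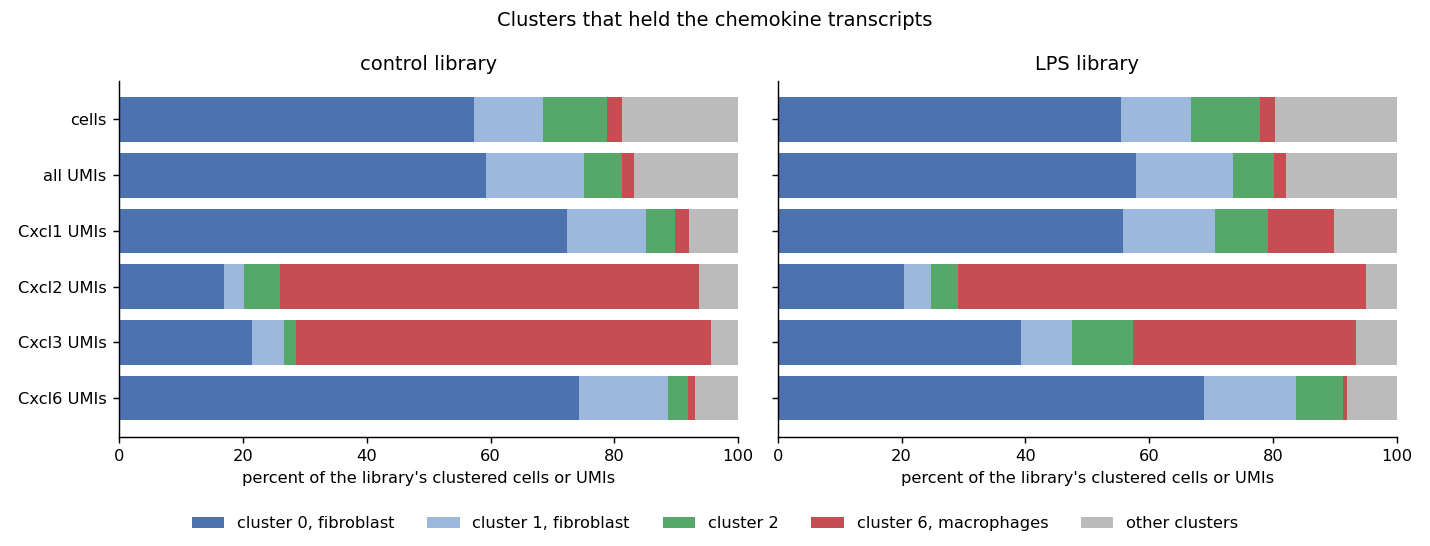
Percent of each library's clustered cells, of all its UMIs and of the UMIs of each gene that came from cluster 0, cluster 1, cluster 2, cluster 6 and the other clusters together; control library left, LPS library right. Macrophages (red) are 2.29% of LPS cells and hold 65.9% of *Cxcl2* and 36.1% of *Cxcl3* UMIs, against 0.744% of *Cxcl6*.

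The make-up of the 4 genes' transcripts was compared within each cluster on the scale of UMIs, which count 3′ ends and are not divided by transcript length. In LPS cells of cluster 0, *Cxcl1* made up 47.1%, *Cxcl6* 37.0%, *Cxcl3* 14.4% and *Cxcl2* 1.47% of the 350208 UMIs of the 4 genes. In LPS macrophages *Cxcl3* made up 48.2% (47.9 to 48.5), *Cxcl1* 33.0% (32.7 to 33.3), *Cxcl2* 17.4% (17.1 to 17.6) and *Cxcl6* 1.45% (1.38 to 1.53) of 96308. The control macrophages had been almost wholly *Cxcl3*, at 89.3% (88.7 to 89.9), with *Cxcl1* at 4.36% and *Cxcl2* at 4.55%. In the mural-like cluster 2, *Cxcl3* made up 14.7% (13.1 to 16.4) in control and 23.7% (23.4 to 24.1) in LPS cells. The endothelial cluster 4 had the highest *Cxcl1* share of any large cluster with LPS, 60.7%. As a share of all transcripts the 4 genes went from 0.334% to 3.87% in macrophages, from 0.0332% to 0.475% in cluster 0, and from 0.0194% to 0.633% in cluster 2.

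**Figure D4:**
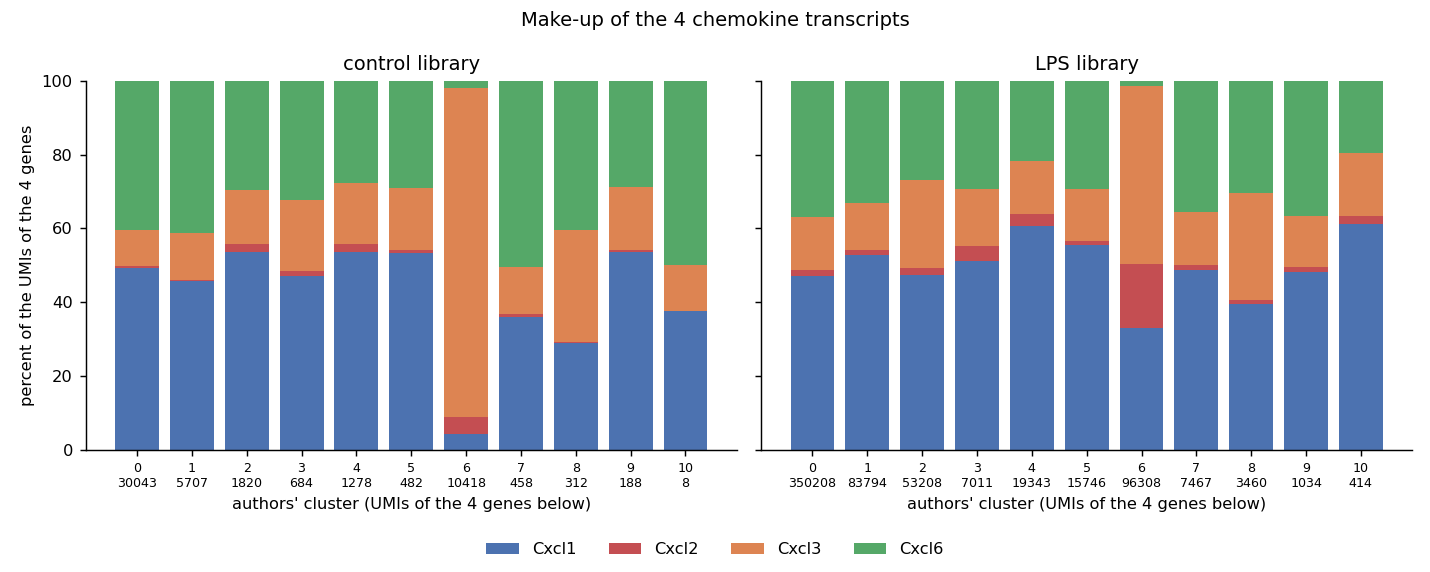
Percent of the UMIs of the 4 chemokine genes that belonged to each gene, by the authors' cluster, in the control (left) and LPS (right) library; the number of UMIs stands under each cluster. *Cxcl3* (orange) fills 89.3% of the control and 48.2% of the LPS bar of cluster 6, and *Cxcl6* (green) is a thin strip in cluster 6 alone.

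To compare cells at 1 depth, each cell was thinned to 3000 UMIs. In LPS macrophages the middle cell held 68 *Cxcl3* UMIs (quartiles 37 to 92), 29.5 *Cxcl1* UMIs (14.25 to 66.75) and 15.5 *Cxcl2* UMIs (7 to 38), of 3000. The highest cell held 186, 174 and 105. In LPS cells of cluster 0 the medians were 6 for *Cxcl1*, 4 for *Cxcl6*, 1 for *Cxcl3* and 0 for *Cxcl2*. In the control library only *Cxcl3* in macrophages had a median above 0 among clusters 0, 2 and 6, namely 6 (2 to 15, highest 126).

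Most cells of the LPS library held several of the 4 transcripts. After thinning, 97.99% (97.6 to 98.3) of the cells of cluster 0 had a *Cxcl1* UMI with LPS, against 1980 of 6600 control cells (28.9% to 31.1%). The shares of *Cxcl6* were 87.2% (86.4 to 87.9) and 24.3% (23.2 to 25.3), those of *Cxcl3* 67.5% and 8.12%, and those of *Cxcl2* 16.5% and 0.409%. Unthinned, the 4 shares in cluster 0 with LPS were 99.9%, 96.8%, 89.0% and 38.8%, at a median of 9822 UMIs per cell, and in the control library 63.2%, 53.4%, 27.5% and 1.47%, at a median of 12968. All 4 genes were seen together in 47.6% of LPS macrophages and 10.4% of LPS cells of cluster 0, and none of them in 0% and 0.114%. The macrophage share is limited by *Cxcl6*, seen in 50.7% of these cells, and that of cluster 0 by *Cxcl2*. The part of freed RNA in these shares was not tested. In the control library none of the 4 was seen in 9.96% of macrophages and 51.1% of cluster 0. No cluster is known to lack these genes. The lowest LPS shares of the larger clusters were those of cluster 3, with 73.7% for *Cxcl1*, 50.3% for *Cxcl6*, 35.2% for *Cxcl3* and 8.75% for *Cxcl2*, at a median depth of 5269 UMIs before thinning, against 9822 in cluster 0.

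**Figure D5:**
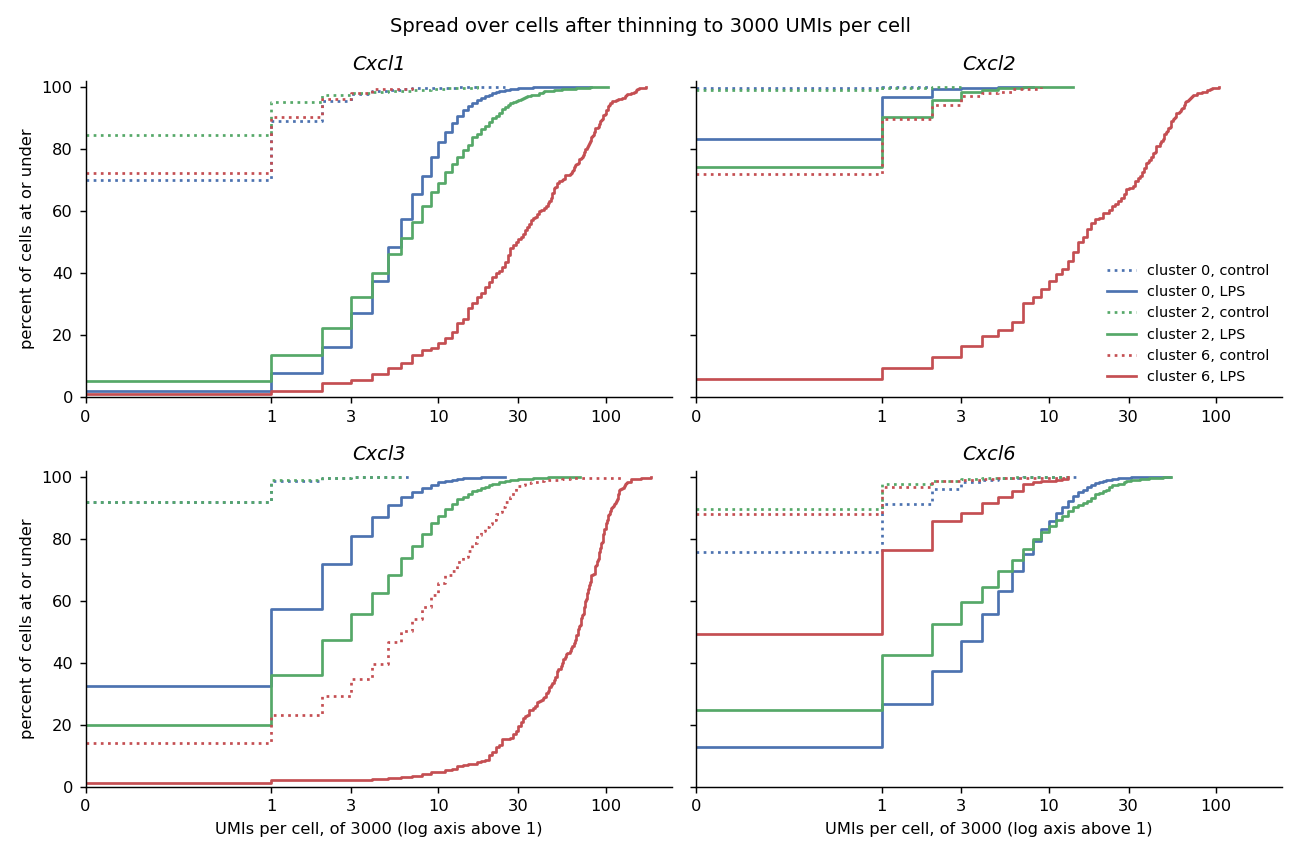
Percent of cells with no more than the given number of UMIs of each gene after thinning to 3000 UMIs per cell (horizontal axis logarithmic above 1), for clusters 0 (blue), 2 (green) and 6 (red), control dotted and LPS solid. The LPS macrophages lie far to the right for *Cxcl1*, *Cxcl2* and *Cxcl3*, and to the left of clusters 0 and 2 for *Cxcl6*.

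Across the 290 thinned LPS macrophages, *Cxcl1* and *Cxcl2* varied together, with a Spearman correlation of 0.88. The correlation was 0.52 for *Cxcl1* with *Cxcl3*, 0.59 for *Cxcl2* with *Cxcl3* and -0.31 for *Cxcl3* with *Cxcl6*. In the 1394 cells of cluster 2 the highest pair was *Cxcl1* with *Cxcl3*, at 0.38, and in the 7024 cells of cluster 0 no pair exceeded 0.13. These cells share 1 library, so the values describe these cells only. In the macrophages *Cxcl3* also went with the cell's depth before thinning, at -0.44, with the summed fibroblast markers, at -0.33, and with the summed macrophage markers, at 0.29. For *Cxcl6* these values were 0.34, 0.20 and -0.18. Their part in the correlations was not tested.

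RNA freed from other cells reaches every droplet, so marker genes of fibroblasts and macrophages were followed beside the chemokines. In LPS macrophages the 9 fibroblast markers, summed, lay at 27.8% of their level in cluster 0 (22.7% to 35.8% for single markers, none at 0), and *Cxcl6* lay at 32.1% (30.4 to 33.8). The *Cxcl6* level of macrophages was thus within the range of fibroblast marker genes in the same cells. *Cxcl1* lay at 571%, *Cxcl3* at 2732% and *Cxcl2* at 9614% of their levels in cluster 0. In the control macrophages the markers lay at 33.3% (28.0% to 42.6%) and *Cxcl6* at 44.4% (38.2 to 51.3).

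In LPS cells of cluster 3 the fibroblast markers lay at 32.0% of cluster 0 (18.3% to 53.2%), and *Cxcl1* at 29.3%, *Cxcl3* at 29.1% and *Cxcl6* at 21.4%, all within that range, whereas *Cxcl2* lay at 71.95% (63.5 to 81.2). A single cell of cluster 3 held 43 of its 276 *Cxcl2* UMIs. In the endothelial cluster 4 the markers lay at 22.03% (16.7% to 30.8%) and *Cxcl6* at 24.6%, with *Cxcl1* at 53.9% and *Cxcl3* at 41.5%. In the endothelial cluster 5 they lay at 20.5% (17.0% to 43.8%), and all 4 chemokines were above, from 55.9% for *Cxcl2* to 85.6% for *Cxcl1*. In control cells of clusters 4 and 5, *Cxcl6* lay at 23.8% and 24.6%. Single fibroblast markers lay there at 19.0% to 33.2% and at 21.3% to 33.2%. *Cxcl1* lay above these ranges, at 37.6% and 36.9%. In LPS cells of cluster 2 the markers lay at 39.3% (19.0% to 77.7%), and the chemokines from 97.1% for *Cxcl6* to 220.1% for *Cxcl3*.

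For *Cxcl2* the macrophages are the cluster to compare with. In LPS cells of cluster 0 the 9 macrophage markers, summed, lay at 0.605% (0.551 to 0.663) of their level in cluster 6, *Cxcl2* at 1.04% (1.01 to 1.07) and *Cxcl3* at 3.66% (3.61 to 3.71). Single markers lay at 0.245% to 1.01% there, so *Cxcl2* was close to the highest of them. *Cd163*, with no UMI in LPS cells of cluster 6, is left out of the ranges of single markers. In cluster 2 the markers lay at 0.351% (0.246 to 0.488), *Cxcl2* at 1.96% (1.84 to 2.08) and *Cxcl3* at 8.05% (7.90 to 8.21). Single markers lay at 0.188% to 0.461% in cluster 2. In cluster 3 the markers lay at 0.628% (0.452 to 0.851) and *Cxcl2* at 0.748% (0.662 to 0.843), with overlapping intervals. Single markers lay at 0.127% to 2.17% in cluster 3. In the endothelial cluster 4 the markers lay at 0.817% (0.660 to 1.00) and *Cxcl2* at 0.968% (0.893 to 1.05), again overlapping. In cluster 5 *Cxcl2*, at 0.581% (0.499 to 0.674), was below the summed markers at 2.13% (1.75 to 2.56). Single markers lay at 0% to 1.32% in cluster 4 and at 0% to 16.5% in cluster 5, and *Cxcl2* was within both ranges. In a count made after the levels were seen, 30 of the 12390 LPS cells outside cluster 6 held at least 10 *Cxcl2* UMIs each. They carried 400 of the 8647 *Cxcl2* UMIs found there, and 1 of the 30 had at least 2 macrophage marker UMIs. Of all 12390 cells, 72 (0.581%) had as many macrophage marker UMIs. In cluster 6, 237 of 291 cells reached 10 *Cxcl2* UMIs. At least 2 macrophage marker UMIs were held by 229 of these 237 and by 273 of all 291. The part of freed RNA in the lower levels was not tested.

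Genes with the most similar levels were sought among 9830 genes over the 22 values of cluster and library, by Pearson's r of log2(CPM + 1). The 22 points share 2 libraries and 1 clustering, so r is a description. For *Cxcl1* the closest 5 were *Nfkb2*, a subunit of NF-κB (0.93), *Zc3h12a*, *Junb*, *Ptgs2*, the inducible cyclooxygenase, and *Tnfaip2*. For *Cxcl2* they were *Ccl4* (0.97), *Il1b*, *Ccl3*, *Ccl7* and *Fgr*, and for *Cxcl3* they were *Ccl7* (0.95), *Ccl4*, *Tlr2*, *Ccl3* and *Il1b*. Most of these encode chemokines or interleukin-1β and were highest in LPS macrophages, where *Ccl3* reached 21442 CPM and *Il1b* 7919 CPM. For *Cxcl6* they were *Cyp7b1* (0.93), *Fas*, *Jak2*, *Vcam1*, an adhesion molecule, and *Irak3*. *Cyp7b1* lay at 82.3 CPM in cluster 0 and 30.2 CPM in cluster 6 of the LPS library. These names depend on which values are used: over the 11 LPS clusters alone, 0 of the 5 were kept for any of the 4 members.

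Among the members, r over the 22 values was 0.96 for *Cxcl2* with *Cxcl3*, 0.92 for *Cxcl1* with *Cxcl6* and 0.69 for *Cxcl2* with *Cxcl6*. Over the 11 LPS clusters alone, *Cxcl6* had r of 0.23 with *Cxcl1*, 0.10 with *Cxcl3* and -0.20 with *Cxcl2*, whereas *Cxcl1* with *Cxcl3* had 0.94.

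Single cells gave other neighbours. In LPS cells of cluster 0, among 2816 genes, *Cxcl1* and *Cxcl2* went most with *Ccl2*, which encodes a chemokine for monocytes, at 0.24 and 0.08. *Cxcl3* went most with *Ccl7*, at 0.12, and *Cxcl6* with *Ptx3*, at 0.09, values too weak to tell the genes apart. The same search in macrophages was added after values were seen. There *Ccl3*, *Il1b*, *Csf3* and *Ccl4* were the first 4 for both *Cxcl1* and *Cxcl2*, with *Ccl3* at 0.70 and 0.75, and *Ccl3* was also first for *Cxcl3*, at 0.65. *Cxcl6* in macrophages had no value above 0.35, and its first 5 included the ribosomal protein genes *Rpl41*, *Rpsa* and *Rps15*.

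The receptors of these chemokines were not seen. *Cxcr1* and *Cxcr2* had 0 UMIs in both libraries, where a limit of 3 UMIs is 0.0197 CPM in all control cells. Of 9 neutrophil markers, *Mpo*, *Ltf* and *Mmp8* were at 0 in both libraries, and *Elane* had 0 control and 4 LPS UMIs. *Camp* had 620 and 1442 UMIs, *S100a8* 56 and 94, and *S100a9* 39 and 90. *Csf3r*, with 9 and 8, and *Ngp*, with 4 and 1, were not higher after LPS. Of the 1442 *Camp* UMIs, cluster 0 held 855, cluster 2 held 214 and cluster 1 held 201, against 24 in cluster 6. Cluster 6 held 51 of the 94 for *S100a8*, and cluster 5 held 59 of the 90 for *S100a9*.

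The neighbouring platelet genes behaved differently from the 4 members. *Pf4*, which encodes platelet factor 4, lay at 2999 CPM in control and 3601 CPM in LPS macrophages, a ratio of 1.20. *Ppbp* had 10 control and 6 LPS UMIs in all cells.

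Of the 6 listed sensing genes with enough UMIs (*Tlr4*, *Cd14*, *Myd88*, *Irak3*, *Il1r1* and *Il1rn*), none was 4-fold higher in clusters 0, 4 or 6. *Tlr4* was lower in LPS macrophages, with 30 control and 4 LPS UMIs, or 9.63 and 1.61 CPM. *Cd14* in macrophages lay at 533 and 1536 CPM, a ratio of 2.88. Of the NF-κB factors, 3 of 6 were 4-fold higher in cluster 0, namely *Nfkb1*, *Nfkbia*, the inhibitor IκBα, and *Tnfaip3*, an ubiquitin-editing inhibitor. Only *Tnfaip3* passed in cluster 4, from 3 to 20 UMIs, and *Nfkbia* and *Nfkbiz* passed in cluster 6, of 4 with enough UMIs. Under 4-fold in cluster 4 were *Nfkbiz*, at a ratio of 3.51 (3.00 to 4.13), and *Nfkbia*, at 3.36 (3.22 to 3.52). *Nfkb1* lay there at 2.73 (2.41 to 3.10), *Rel* at 1.83 (0.780 to 4.51) and *Rela* at 1.60 (1.44 to 1.76). In cluster 6 the ratio of *Nfkb1* was 3.89 (3.21 to 4.74), against 4.12 (3.93 to 4.31) in cluster 0. Of the 3 genes of messenger decay, *Zc3h12a* alone was 4-fold higher in each of these clusters. It went from 12.5 to 151 CPM in macrophages and from 7.40 to 66.8 CPM in cluster 0. Of all tested genes, 1.21% passed 4-fold in cluster 0, 0.841% in cluster 4 and 1.8% in cluster 6.

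Genes that supply or capture neutrophils were higher beside the chemokines. In cluster 0, 5 of 6 passed 4-fold (*Csf3*, *Csf2*, *Sele*, *Selp* and *Icam1*), and *Il17ra* did not, against 1.21% of all genes tested there. All listed genes were chosen with earlier results of these data known, so the counts of each list are a description only. *Csf2* rested on 1 control and 21 LPS UMIs. *Sele*, the E-selectin gene of endothelium, lay at 0.908 CPM in LPS cells of cluster 0 against 25.1 CPM in cluster 4, and *Selp* at 5.69 CPM against 43.6 CPM. The summed endothelial markers lay at 54.0 and 1422 CPM in the same cells, and the part of freed RNA in these levels was not tested. *Selp* was the first leading gene of the other endothelial cluster, 5, in which these listed genes were not followed. Clusters 0 and 4 held 420 and 424 of the 4152 *Selp* UMIs of the LPS library. In clusters 4 and 6, 4 of 5 with enough UMIs passed, against 0.841% and 1.8% of all genes tested there. *Icam1*, an adhesion molecule that leukocytes bind, lay at 14.4 CPM in control and 135 CPM in LPS cells of cluster 0, and at 21.8 and 150.1 CPM in the endothelial cluster 4. *Selp*, which encodes P-selectin, lay at 3.87 CPM in control cells of cluster 4. *Csf3*, the granulocyte colony-stimulating factor, went from 26 to 2591 UMIs in cluster 0 and from 1 to 5516 UMIs in macrophages. Its LPS level was 35.1 CPM in cluster 0 and 2219 CPM in macrophages.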

How the data were processed

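The deposited files held raw UMI counts per gene and cell barcode, not normalized by the authors, with the cluster and type that the authors assigned to every cell. Submitters' processing notes name Cell Ranger 2.2.0 and Seurat 2.3.4; the genome build is not given in the sources used here. Cell Ranger drops reads that map to several genes, so levels of close paralogs such as *Cxcl1*, *Cxcl2* and *Cxcl3* are uncertain. The members and gene lists were chosen with earlier results of these data known. Raw UMIs were summed per cluster and library, 152616191 control and 127556160 LPS UMIs in all, with Python 3.11.15 (scipy 1.17.1, pandas 2.3.3, numpy 2.4.6). Poisson intervals were used for levels, conditional binomial intervals for ratios and Clopper-Pearson intervals for shares. All barcodes with a cluster were kept and no doublet caller was run; leaving out the 8% of cells with the most UMIs was an alternative. Cells were thinned to 3000 UMIs without replacement, which left out 75 LPS cells and no control cell. Genes needed 20 UMIs over both libraries, members 10. Named genes were the members, the 5 most similar genes for each, and listed pathway genes past 4-fold in cluster 0, 4 or 6; other genes named were chosen after their values were seen. The ratio script was also run on simulated counts with known fold changes. *Cxcl5*, *Ackr1* and *Ly96* had no row under these symbols.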

Additional observations from a re-analysis of the deposited data

Results flagged for a closer look

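Cells to which the authors gave no cluster lay outside every comparison above. The 8 such LPS cells, with 24315 UMIs of which 87.8% were mitochondrial, held 6 *Cxcl1* UMIs and 4 *Cxcl6* UMIs. The 2 such control cells, with 8394 UMIs, held 0 of either. These counts equal 247 CPM (95% interval 90.6 to 537) for *Cxcl1* and 165 CPM (44.8 to 421) for *Cxcl6*. In the 2 control cells a limit of 3 UMIs is 357 CPM, so a difference was not detectable at this depth.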

How the results depend on the processing

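No paired analysis was possible because there is a single library of each condition and no test was made. Of 275 alternative values of 47 log2 ratios, 235 lay within the counting interval of the reported value, 40 lay outside and 0 changed direction; all 243 values of single clusters stayed between 2.57 and 7.22 on the log2 scale, thus above 4-fold. Over all clustered cells the log2 ratio of *Cxcl1* was 4.11, and 4.16 as the mean of the cells' own CPM, 4.15 after thinning, 3.98 without cluster 6 and 4.74 without cluster 0. That of *Cxcl3* was 3.47, and 3.37, 3.43, 4.42 and 3.04 in the same order. Without cluster 0, *Cxcl2* went from 5.43 to 5.32 and *Cxcl6* from 3.79 to 4.01. By over 1.5 times moved 21 values, 14 of them in clusters 7 to 10, and thinning took *Cxcl3* in cluster 5 to 5.40, *Cxcl2* in cluster 7 to 2.76, *Cxcl1* in cluster 8 to 4.59, and *Cxcl3* and *Cxcl6* in cluster 9 to 3.77 and 2.78. Leaving out a cluster was added after seeing the data, and the ratio over all cells weighs clusters by their UMIs. The count of 43 pairs past 4-fold was 42 to 44 under the alternatives that kept 4-fold. Counting intervals do not cover the spread between cells. Nor do they cover that between animals or cultures, which 1 library per condition cannot show. In clusters 8 to 10 the depth limits *Cxcl2* to 1 or no control UMI.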
